A study of Arabidopsis thaliana with 16 samples.

Results

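SLY1 (AT4G24210) and SLY2 (AT5G48170, also called SNE or SNEEZY) are the F-box genes of Arabidopsis thaliana whose products mark DELLA proteins for destruction. They were taken by gene identity, but with earlier results of these data known. Each has 1 ATH1 probe set annotated to it and to no other gene. These are 2 of the 22810 probe sets on the array and were both among the 17059 tested. Their transcript levels were described in shoots of 8-day-old seedlings of ecotype Ler, on 16 one-colour Affymetrix arrays, one array per biological replicate. In the rga line, DEX (dexamethasone, a synthetic steroid) switches on rga-delta17, a dominant DELLA protein that gibberellin does not remove. The vector line has the same vector without rga-delta17. Seedlings of both lines were pretreated with the gibberellin GA4 (2 µM, 16 h earlier), so no group was free of added gibberellin. They were then sprayed with 2 µM GA4 alone (mock) or with 2 µM GA4 plus 10 µM DEX. The rga line had 3 arrays in each of 4 groups (mock and DEX, at 2 h and at 4 h), and the vector line had 2 arrays in each of 2 groups (mock and DEX, at 4 h only). The promoter behind rga-delta17 is not given in the sources used here. Induction of the transgene was not analysed here.

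Gibberellin acts by removing its own repressors. When the hormone binds a GID1 receptor, the receptor takes hold of a DELLA protein, and the F-box protein SLY1 joins this complex to a SKP1, cullin and RING-box ligase (an SCF ligase), which attaches ubiquitin and sends the DELLA protein to the proteasome. SLY2 is the closest relative of SLY1 in this role: loss of SLY1 gives dwarf, poorly germinating plants, and extra SLY2 can partly stand in for it. The comparisons below ask whether the transcripts of these genes changed when a DELLA protein that escapes this route was switched on, and whether DEX alone moved them.

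The arrays had been scaled by the authors to 1 target, with a trimmed mean signal of 500.05 on each. Correlations over the probe sets tested were 0.916 to 0.975 among 14 of the arrays, but 0.789 to 0.884 between these and the 2 vector DEX arrays. On those 2, median signals were 137 and 140, against 167 to 192 elsewhere, and the 25S rRNA control signals were 12528 and 13088, against 391 to 2046 elsewhere. Results of SLY1 and SLY2 that rest on these arrays are given with other scalings. The leaf genes RCA (Rubisco activase) and PRK (phosphoribulokinase) are the 2 of 10 listed leaf markers with an annotated probe set, and had signals of at least 16738 and 5889 on every array. Of 10 listed root markers 3 were measured: the root-hair expansin genes EXPA7 and EXPA18 had signals of at most 183 and 198, but PYK10, a beta-glucosidase gene of roots and hypocotyls, had 5464 to 8100.4. In such bulk tissue, fewer cells of a type and less RNA per cell cannot be told apart.

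SLY1 was measured at a moderate signal, brighter on average than 67.4% of the probe sets tested. In the rga line at 2 h its signal was 543, 428 and 491 in mock and 673, 656 and 729 with DEX. Every DEX array lay above every mock array, as for 9.43% of the probe sets tested. At 4 h it was 635, 663 and 507 in mock and 633, 684 and 701 with DEX, and these ranges overlapped. In the vector line at 4 h it was 468 and 385 in mock and 343 and 370 with DEX. Both vector DEX arrays were below both vector mock arrays, as for 46.3% of the probe sets tested. These 4 arrays were below all 6 rga arrays of the same time, as for 15.7%.

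SLY2 was dimmer, brighter than 20.5% of the probe sets tested, but above the floor of 7.95 on all 16 arrays. That floor is the 10th percentile of all values and not a detection limit. In the rga line at 2 h its signal was 79.2, 152 and 149 in mock and 135, 121 and 135 with DEX. Mock replicate 1 was the lowest of all 12 rga arrays, and the DEX values lay between those of the mock replicates. At 4 h it was 141, 105 and 93.9 in mock and 113, 126 and 125 with DEX, again with the DEX values inside the mock range. In the vector line it was 85.4 and 88.4 in mock and 52.3 and 48.0 with DEX. The vector DEX arrays held the lowest SLY2 values of the series, where the 25th percentile of all values was 43.3. Signals of different probe sets are not on a common scale, so the level of one gene is not compared with that of the other.

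**Figure D1:**
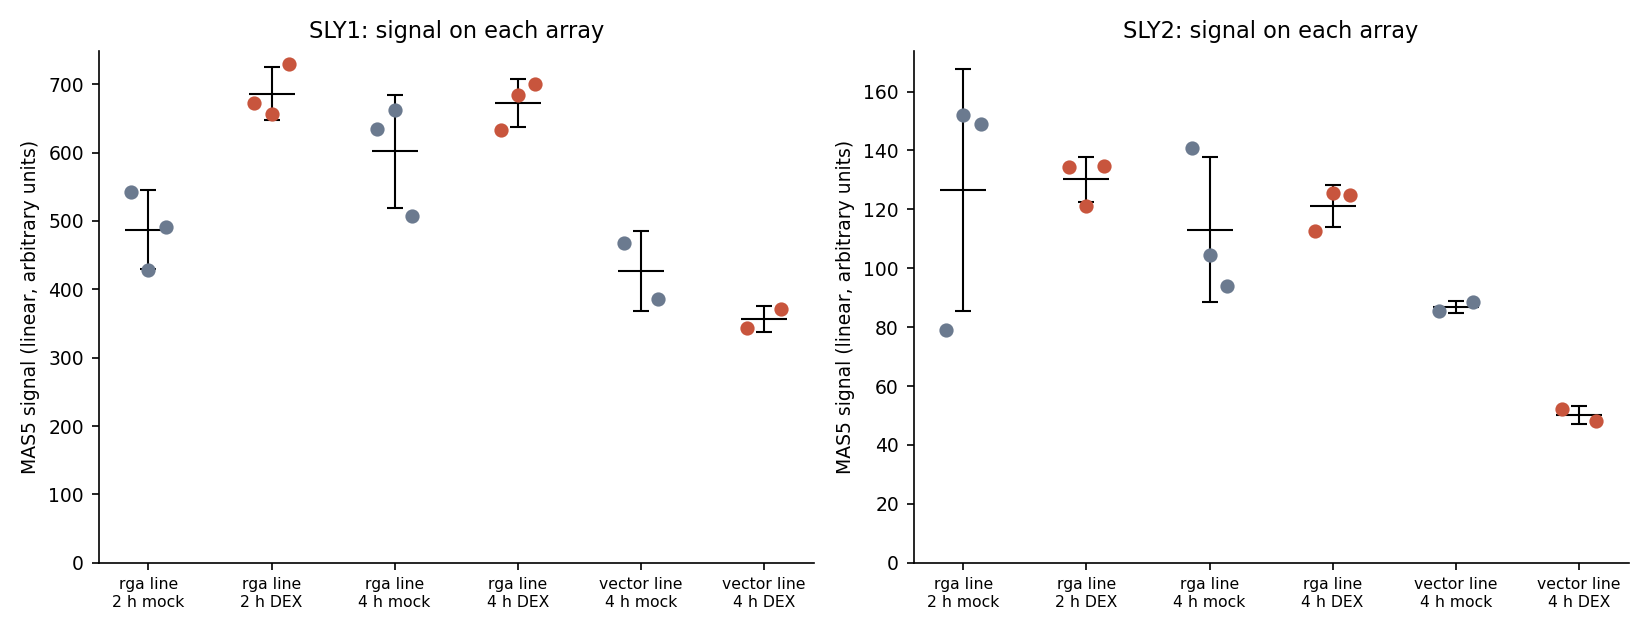
Signal of SLY1 (left) and SLY2 (right) on each of the 16 arrays, on a linear axis in arbitrary MAS5 units. Points are arrays, grey for mock and red for DEX, and black bars are the group mean ± SD (n = 3 in the rga line, n = 2 in the vector line). SLY1 rises from 428 to 543 in the rga mock group at 2 h to 656 to 729 with DEX, and SLY2 is lowest on the vector DEX arrays, at 48.0 and 52.3.

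In the rga line at 2 h, SLY1 transcript was higher with DEX than in mock, and no change in SLY2 was detected. There were no vector arrays at 2 h, so effects of DEX and of rga-delta17 cannot be told apart at this time. For SLY1 the mean signal rose from 487 (SD 57.6) to 686 (SD 38.2), with n = 3 per group. This is a log2 change of 0.50 ± 0.12 (SE) or 1.41-fold, with a limma adjusted p of 0.0247. Over all probe sets tested, 3.02% were called higher in this comparison (adjusted p below 0.05), and 11.8% moved by more than SLY1 in either direction. Groups that did not overlap, with DEX higher, were found for 9.43% of the probe sets. SLY2 went from 127 ± 41.2 to 130 ± 7.68, a log2 change of 0.10 with a 95% interval from -0.44 to 0.63 (adjusted p = 0.934), so a change in SLY2 of the size seen for SLY1 lies within its interval. The SLY1 call was narrow. It was lost without the eBayes trend (0.50, adjusted p = 0.0530), and when mock replicate 2 (log2 change 0.41, adjusted p = 0.123), mock replicate 3 (0.51, adjusted p = 0.0590), DEX replicate 1 (0.51, adjusted p = 0.0705) or DEX replicate 3 (0.46, adjusted p = 0.0933) was left out.

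At 4 h neither gene was called in the rga line, in a comparison in which 5.16% of the probe sets were. SLY1 averaged 602 ± 82.8 (SD) in mock and 673 ± 35.4 with DEX, a log2 change of 0.17 ± 0.12 (adjusted p = 0.570, 95% interval from -0.09 to 0.43). SLY2 was 113 ± 24.7 and 121 ± 7.25, a log2 change of 0.12 ± 0.25 (adjusted p = 0.888). The mean SLY1 signal with DEX was nearly the same at both times, 686 and 673, while the mock mean was 487 at 2 h and 602 at 4 h. The difference between the 4 h and 2 h DEX effects was -0.33 ± 0.17 for SLY1 (unadjusted p = 0.0733, adjusted p = 0.923) and 0.02 ± 0.36 for SLY2 (adjusted p = 0.997), where 0.0469% of the probe sets were called. A different response at the 2 times was therefore not shown for either gene.

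Over both times together, SLY1 was higher with DEX by 0.33 ± 0.09 on the log2 scale, or 1.26-fold (adjusted p = 0.0182), in a comparison that called 5.69% of the probe sets higher. This call was lost without mock replicate 2 of 2 h (adjusted p = 0.0502) or mock replicate 3 of 4 h (adjusted p = 0.0512). An exact two-sided permutation test of the DEX labels within each time, chosen with the values known, gave p = 0.015 for SLY1 over 400 arrangements, where the smallest possible p is 0.005. SLY2 changed by 0.11 ± 0.18 (adjusted p = 0.800), and the same exact test gave p = 0.615.

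**Figure D2:**
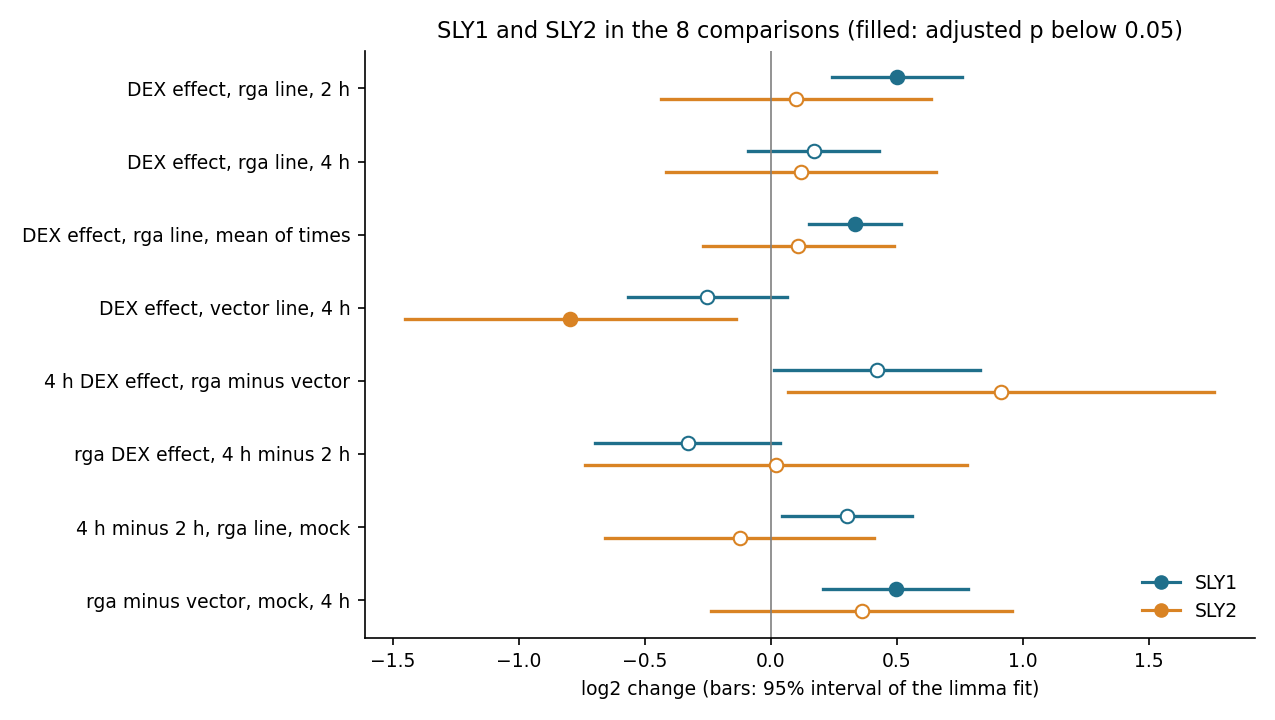
Log2 changes of SLY1 (blue) and SLY2 (orange) in the 8 comparisons, with 95% intervals of the limma fit. Filled points have an adjusted p below 0.05. SLY1 is called at 2 h (0.50), over both times (0.33) and between the lines in mock (0.49), SLY2 in the vector line (-0.79), and the intervals of SLY2 are wider throughout.

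In the vector line, where there was no rga-delta17 for DEX to switch on, SLY2 had less transcript with DEX. The mean fell from 86.9 (SD 2.15) to 50.1 (SD 3.03), with n = 2 per group, and the log2 change was -0.79 ± 0.31 (adjusted p = 0.0435). In this comparison 29.6% of the probe sets were called lower, 46.3% had both DEX arrays below both mock arrays, and the median log2 change of all was -0.15. As deposited, 34.2% of the probe sets moved by more than SLY2 in either direction. The balance of the whole comparison turned with the scaling: 37.4% of its calls were higher as deposited and 58.1% after median centring, with a median change of 0.12. The call also ended under other settings: the change was -0.38 after quantile normalization (adjusted p = 0.357) and -0.52 after centring on array medians (adjusted p = 0.171), and it was not called without any single one of the 4 arrays (adjusted p from 0.0878 to 0.154). SLY1 went from 426 ± 58.3 to 357 ± 19.5, a log2 change of -0.25 ± 0.15 (adjusted p = 0.185) that became 0.02 after median centring. The low median and high 25S rRNA signal of the vector DEX arrays moved with these values, and their part in the SLY2 result was not tested.

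The estimated DEX effects at 4 h had opposite signs in the lines for both genes as deposited (for SLY1 not after median centring), and the difference was not called for either. The 4 h DEX effect in the rga line minus that in the vector line was 0.42 ± 0.19 for SLY1 (unadjusted p = 0.0441, adjusted p = 0.115) and 0.91 ± 0.40 for SLY2 (unadjusted p = 0.0357, adjusted p = 0.0974). This comparison called 30.5% of all probe sets. The differences shrank to 0.29 and 0.52 after quantile normalization, and to 0.17 and 0.66 after median centring.

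**Figure D3:**
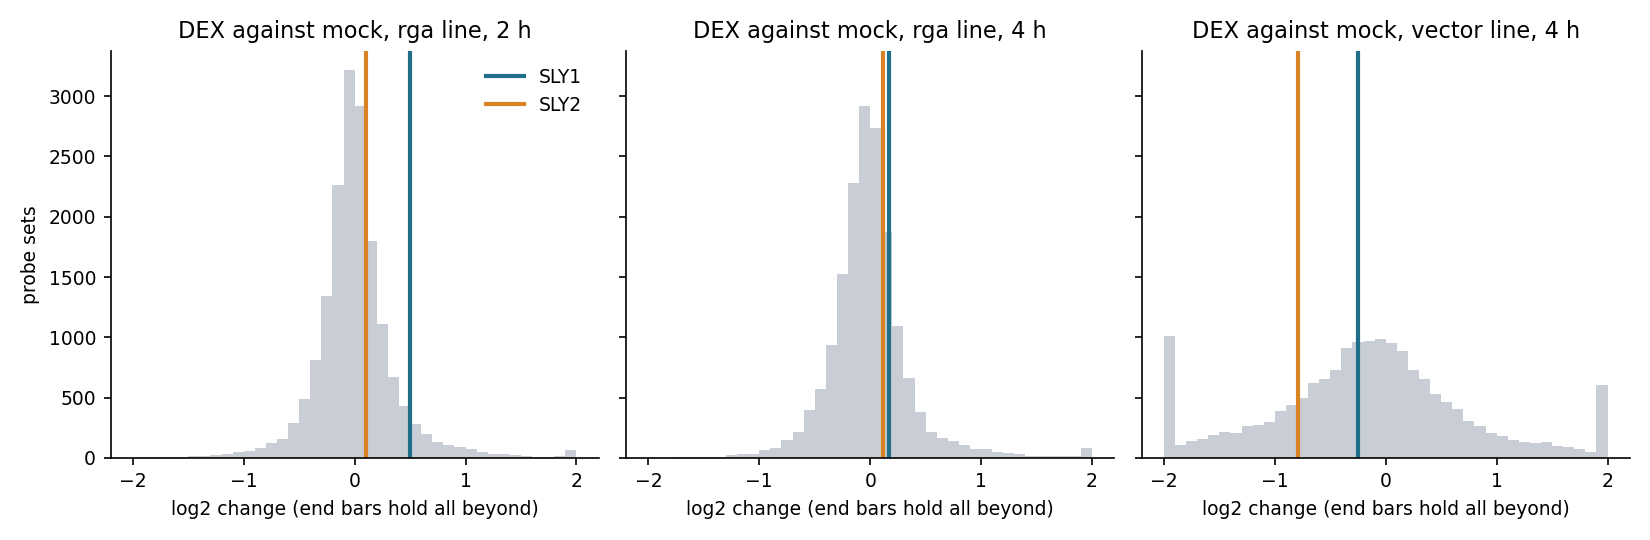
Number of probe sets (vertical axis) by log2 change of DEX against mock (horizontal axis, bins of 0.1, end bars holding all changes beyond 2) for the 17059 probe sets tested, with SLY1 in blue and SLY2 in orange. SLY1 sits in the upper flank at 2 h (0.50), both genes sit near the centre at 4 h in the rga line (0.17 and 0.12), and SLY2 sits in the broad lower flank of the vector line (-0.79).

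Without DEX, SLY1 was higher in the rga line than in the vector line. At 4 h it was 602 ± 82.8 (n = 3) against 426 ± 58.3 (n = 2), a log2 difference of 0.49 ± 0.14 (adjusted p = 0.0207), where 11.5% of the probe sets were called higher and 32.6% had no overlap in this direction. This call was lost after median centring (0.34, adjusted p = 0.105), when only the 5 arrays compared were fitted (adjusted p = 0.0652), and without rga mock replicate 1 (0.45, adjusted p = 0.0689), rga mock replicate 2 (0.42, adjusted p = 0.0738) or vector mock replicate 2 (0.35, adjusted p = 0.235). SLY2 was 113 ± 24.7 against 86.9 ± 2.15, a difference of 0.36 ± 0.28 (adjusted p = 0.398) that fell to 0.02 after quantile normalization. Other measures differed between the lines in the same arrays. The root-hair genes EXPA7 and EXPA18 were also called higher in the rga line (1.58 ± 0.49 and 0.99 ± 0.32), calls that quantile normalization ended for both and median centring for EXPA18. PYK10 was not called (-0.11 ± 0.11). The ratio of the 3′ to the 5′ Actin control signal was 7.98 to 11.4 on rga arrays and 12.8 to 16.6 on vector arrays. For the other controls the lines overlapped. The GAPDH ratio was 0.69 to 0.88 on rga arrays and 0.76 to 0.88 on vector arrays. That of Ubq was 0.94 to 1.52 and 1.18 to 1.37. The part of these measures in the difference in SLY1 was not tested.

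All 6 rga arrays at 4 h, mock and DEX together, lay above all 4 vector arrays for both genes as deposited. The ranges were 507 to 701 against 343 to 468 for SLY1, and 93.9 to 141 against 48.0 to 88.4 for SLY2. The same held for 15.7% of the probe sets tested. The mean log2 difference between the lines, taken within mock and within DEX, was 0.70 for SLY1 and 0.82 for SLY2. This comparison was chosen with the values known and is given without a test. The differences were 0.66 and 0.28 after quantile normalization, and 0.42 and 0.53 after median centring.

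**Figure D4:**
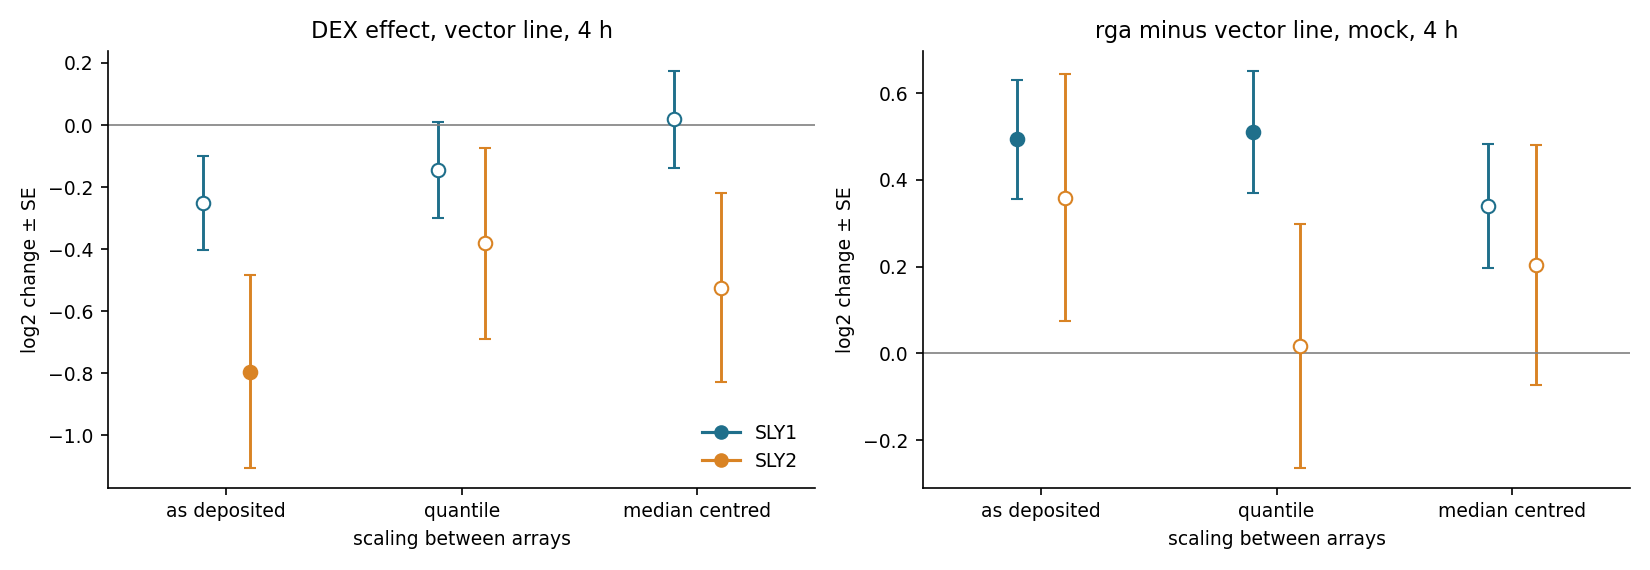
Log2 change ± SE of SLY1 (blue) and SLY2 (orange) under 3 scalings between arrays, for DEX against mock in the vector line (left) and for the rga line minus the vector line in mock (right). Filled points have an adjusted p below 0.05. SLY2 in the vector line goes from -0.79 to -0.38 and -0.52, and SLY1 between the lines goes from 0.49 to 0.51 and 0.34.

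Between the 2 h and 4 h mock groups of the rga line, both sprayed with GA4, neither gene was called. In mock arrays of the rga line, SLY1 was higher at 4 h than at 2 h by 0.30 ± 0.12 (unadjusted p = 0.0245, adjusted p = 0.350), with 2 of 3 arrays of 4 h above all arrays of 2 h. SLY2 differed by -0.12 ± 0.25 (adjusted p = 0.947). This comparison called 1.54% of the probe sets.

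Ordered by mean log2 signal, SLY1 was highest in the rga line with DEX at 2 h and then at 4 h, followed by rga mock at 4 h, rga mock at 2 h, vector mock and vector DEX. The ranges of neighbouring groups overlapped except for the last pair, vector mock above vector DEX, which did not overlap for 46.3% of the probe sets tested. The 95% intervals of the neighbours' differences included 0 except for rga mock at 4 h against rga mock at 2 h (0.04 to 0.56). The order for SLY2 was rga DEX at 2 h, rga mock at 2 h, rga DEX at 4 h, rga mock at 4 h, vector mock and vector DEX. The 4 rga groups of SLY2 were not told apart, their neighbouring differences being 0.01 to 0.12 with an SE of 0.25. Ranges did not overlap for rga mock at 4 h above vector mock (32.6% of the probe sets tested), nor for vector mock above vector DEX (46.3%). The interval left out 0 for the latter alone (0.14 to 1.45).

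The genes that act around SLY1 and SLY2 in gibberellin perception responded unequally. Of the 11 genes listed for perception and DELLA signalling, 7 have an annotated probe set, all of which were tested. In the mean over both times of the rga line, 4 of the 7 rose with DEX, none fell and 3 were not called, where 5.69% of all probe sets were called higher and 3.91% lower. SLY1 (0.33 ± 0.09) was among those that rose, at a size close to that of SEC (0.32 ± 0.08), an O-GlcNAc transferase gene whose product modifies DELLA proteins. Of the receptor genes, GID1A rose by 0.48 ± 0.09 and GID1B by 1.71 ± 0.12, while the third receptor gene GID1C was at -0.15 ± 0.13 and was not called. SPY, which codes for an O-fucosyltransferase of DELLA proteins, was at 0.16 ± 0.07 (adjusted p = 0.210), and SLY2 was at 0.11. The median of the 7 was 0.32, where that of all probe sets was -0.02. At 2 h SLY1 and GID1B were the 2 of 7 that rose and none fell, where 3.02% of all probe sets were called higher. GID1A was then at 0.28 ± 0.12 and not called (adjusted p = 0.306). At 4 h GID1A and GID1B were the 2 that rose, where 3.61% were called higher.

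In the vector line 2 of the 7 rose with DEX and 3 fell, in a comparison that called 17.7% of all probe sets higher and 29.6% lower. SLY2 was among those that fell, with GID1A (-1.08 ± 0.15) and GID1C (-0.59 ± 0.22). GID1B rose by 1.18 ± 0.20 and SPY by 0.35 ± 0.12. SEC, at 0.20 ± 0.14 and not called as deposited, was called higher after median centring (0.47, adjusted p = 0.0150). The falls of SLY2 and GID1C were both lost after quantile normalization and after median centring, whereas that of GID1A was kept under both (-0.76 and -0.81). The median of the 7 was -0.25, that of all probe sets -0.15. The 4 h interaction of line and DEX was called for GID1A (1.76 ± 0.20) and GID1B (0.72 ± 0.26, a call lost after median centring) and, as deposited, for none of the other 5, SLY1 and SLY2 included. After median centring it was also called for SPY (-0.44, adjusted p = 0.0416). Between the lines in mock, SLY1 and GID1A were higher in the rga line, SEC was lower (not called after quantile normalization, adjusted p = 0.0541), and 4 of the 7 were not called. Over all probe sets, 11.5% were called higher and 6.03% lower there.

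**Figure D5:**
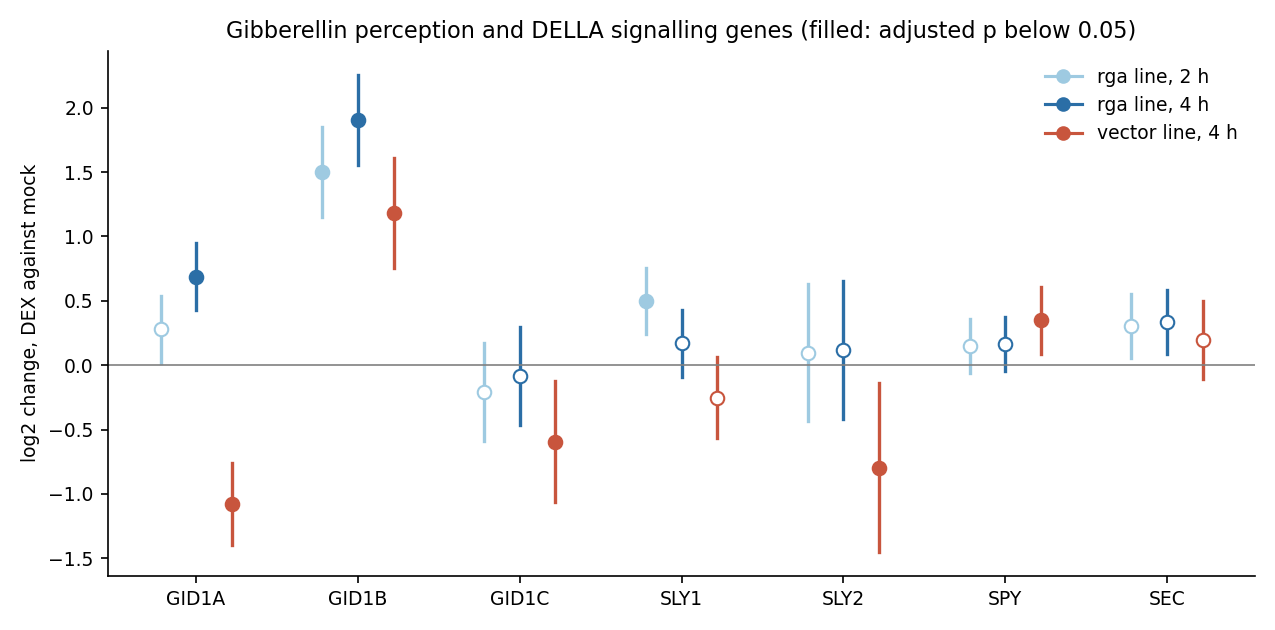
Log2 change of DEX against mock, with 95% intervals, for the 7 measured genes of gibberellin perception and DELLA signalling, in the rga line at 2 h (light blue) and 4 h (dark blue) and in the vector line at 4 h (red). Filled points have an adjusted p below 0.05. SLY1 rises at 2 h in the rga line (0.50), less than GID1B does, and SLY2 falls in the vector line (-0.79) together with GID1A (-1.08) and GID1C (-0.59) as deposited, the falls of SLY2 and GID1C being lost under both other scalings.

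Few other F-box genes could be set beside SLY1. Of 23 listed regulatory F-box genes 4 have an annotated probe set and 3 were tested, and none of these was called at 2 h, at 4 h or over both times. HWS, an F-box gene that limits growth and organ fusion, was at -0.36 ± 0.13 over both times, SKP2A, a cell-cycle F-box gene, at -0.28 ± 0.14, and FBL17, an F-box gene of cell-cycle entry, at -0.05 ± 0.13. In the vector line SKP2A fell by 2.75 on the log2 scale (SE 0.24), from 351 ± 56.7 to 52.2 ± 7.55, and HWS fell by 1.72 (SE 0.23), from 224 ± 6.37 to 68.2 ± 3.34, while FBL17 was at 0.23 ± 0.23. Both falls were larger than that of SLY2 and were kept after quantile normalization (-2.12 and -1.19) and median centring (-2.48 and -1.45). UFO, the floral organ F-box gene, was left out of the tests as too dim, with signals of 4.77 to 43.1. Of the 17 listed genes of the SCF core and its regulators 2 were tested. CSN5B, a COP9 signalosome subunit that removes the RUB modifier from cullins, was at -0.12 ± 0.21 over both times in the rga line and at 0.31 ± 0.37 in the vector line, and AT3G42830 was at -0.57 ± 0.57 and 0.51 ± 0.98. None of the 17 listed genes of gibberellin synthesis and inactivation has an annotated probe set here, so they were not analysed.

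The transcripts whose log2 signals ran most like those of SLY1 and SLY2 depended on whether the vector arrays were counted. Pearson's r is given as a description over arrays that share scaling and groups. Over all 16 arrays, the nearest annotated genes to SLY1 were AT4G19650 (r = 0.914), AT3G26380 (0.907), AT5G17660 (0.902), AT5G05430 (0.901) and AT3G25290 (0.892). Those nearest to SLY2 were AT3G53360 (0.957), AT1G16020 (0.949), which codes for the vesicle-trafficking factor CCZ1a, AT2G21340 (0.948), AT3G55160 (0.921) and AT3G60070 (0.920). These neighbours were chosen over arrays that include the vector DEX arrays, where SLY2 was lowest, and their changes with DEX in the vector line, -0.42 to -1.24 as deposited, follow in part from that choice. At 2 h in the rga line their changes were -0.14 to 0.13.

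Over the 12 rga arrays alone, none of these 10 genes stayed among the 5 nearest. SLY1 then ran most like AT1G15430 (r = 0.920), LIS (0.903), which codes for the splicing-related protein LACHESIS, AT1G07990 (0.887), the xyloglucan-remodelling gene EXGT-A3 (0.884) and AT1G10390 (0.880). Their log2 changes with DEX at 2 h in the rga line, which are part of what chose them, were 0.24 to 0.69. In the vector line, whose arrays did not enter the choice, their changes were 0.43 to 1.51 as deposited, where SLY1 was at -0.25. SLY2 ran most like AT5G49960 (0.897), the sucrose transporter gene SWEET9 (0.855), CSLA01 (0.852), a cellulose synthase-like gene, AT3G42920 (0.848) and AT4G22610 (0.838). The rga mock group at 2 h held the lowest SLY2 value of the rga arrays (79.2). In that group the lowest signals of these 5 genes were 55.1, 48.3, 4.21, 42.1 and 35.6 in the same order. That of CSLA01 was under the floor. The weight of single arrays in these r values was not tested.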

How the data were processed

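Per the labels, 16 samples were hybridised to 1 array each. The authors deposited linear intensity values, one for each probe set. MAS5 is the tool that the submitters' processing notes name. Its version and a genome build are not given there. The authors' scaling was kept. Of 22810 probe sets, 64 controls were left out. Values under the 10th percentile of all (7.95) were raised to it, log2 was taken, and the dimmest 25% by mean were left out, leaving 17059. Probe sets were named by a platform annotation that gives 1 gene for 13513, and symbols were updated through RefSeq (TAIR10.1).

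A single limma fit (R 4.3.3, limma 3.58.1) of 6 group means with 10 residual degrees of freedom and an eBayes trend gave 8 comparisons, each adjusted by Benjamini-Hochberg over all probe sets tested. The fit was tested on simulated data in which the vector DEX arrays did not stand apart, so that test does not cover this feature. The number of arrays limits the precision. The members and gene lists were chosen with earlier results of these data known. Besides SLY1 and SLY2, the text names the measured perception genes, up to 4 genes of each other list with the smallest p, and the 5 annotated genes most like each member.

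The alternatives were quantile normalization, median centring, an offset of 43.3 instead of the floor, no floor at all, no filter, a 50% filter, no trend, array weights, only the arrays compared, no vector DEX arrays, a replicate block, and each array left out. Equal replicate numbers are not stated to mark a shared day or plate. Deviations from group means of same-numbered arrays correlated at -0.09 to 0.26, with 2 of 36 pairs over 0.1. Different-numbered arrays of different groups gave -0.24 to 0.13, with 2 of 70 pairs over 0.1. Such correlations cannot exclude a pairing.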

Additional observations from a re-analysis of the deposited data

Results flagged for a closer look

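The genes of the lists, leaf and root markers included, were screened for a 4 h DEX effect that differed between the lines. The genes most like SLY1 and SLY2 were not part of this screen. By the interaction test of the limma fit, 5 were called: GID1A (1.76 ± 0.20, adjusted p = 2.45e-06), GID1B (0.72 ± 0.26, adjusted p = 0.0447), SKP2A (2.62 ± 0.31, adjusted p = 4.28e-06), HWS (1.22 ± 0.29, adjusted p = 0.00383) and PRK (0.60 ± 0.18, adjusted p = 0.0172). All are rga minus vector on the log2 scale, in a comparison that called 30.5% of the probe sets. Another scaling ended 3 of these calls: that of HWS after quantile normalization (0.69, adjusted p = 0.102), and those of GID1B (0.47, adjusted p = 0.198) and PRK (0.35, adjusted p = 0.196) after median centring. The 25S rRNA control probe set, outside the comparisons, had a mean signal of 12808 on the vector DEX arrays against 474 on the vector mock arrays.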

How the results depend on the processing

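Log2 changes follow, with the limma adjusted p in brackets. The fall of SLY2 in the vector line was no longer called after quantile normalization, at -0.38 (0.357), median centring, at -0.52 (0.171), or an offset, at -0.48 (0.0832). It was at -0.79 and not called without a filter (0.0559), with the replicate number as a block (0.0565) and with only the arrays compared (0.0525), and it was -0.86 to -0.73, not called, without any single array. The block ended no other call of SLY1 or SLY2, and moved the count of called probe sets from 8062 to 8107 in the vector line. SLY1 in the vector line turned to 0.019 (0.936) after median centring. The SLY1 difference between the lines in mock was not called after median centring, at 0.34 (0.105), or with only the arrays compared, at 0.49 (0.0652), and was 0.35 to 0.63 without single arrays. The SLY1 rise at 2 h was not called without the trend, at 0.50 (0.0530), and was 0.41 to 0.58 without single arrays. The SLY1 mean over both times kept its call under every other limma setting apart from single arrays left out (0.0141 to 0.0372). Without single arrays it was 0.28 to 0.38, and was not called without 2 of them. Uncalled SLY2 changes turned sign: with array weights the time difference of the DEX effects was -0.10 and the mock time difference 0.0090. Without single arrays they ran from -0.14 to 0.33 and from -0.43 to 0.037, and the DEX effects from -0.21 to 0.26 at 2 h, from -0.0052 to 0.29 at 4 h and from -0.046 to 0.19 over both times. SLY2 has no value with the dimmest 50% left out. Of the 5 genes most like each member over 16 arrays, 0 were among the 5 over 12. Counts of called probe sets moved by over 1.5 times in 4 comparisons: from 880 down to 509 at 4 h in the rga line, from 263 to 98 for time in mock, from 2994 to 1027 between the lines in mock, and from 8 (945 at an unadjusted p below 0.05) to between 0 and 13 for the time difference of the DEX effects in limma. The higher share of the calls in the vector line went from 37.4% to 43.6% with quantile normalization and to 58.1% with median centring, and the median change of all from -0.15 to -0.02 and 0.12. Between the lines in mock the shares were 65.7%, 53.7% and 35.4%. The causes were not tested. With 2 or 3 arrays per group and 1 probe set per gene, a comparison that was not called does not exclude changes within its interval.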
